A study of Rattus norvegicus with 2 samples.

Results

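A two-colour Agilent rat expression array set neural precursor cells labelled as overexpressing Bcl-2 (red, Cy5) against cells labelled as carrying an empty vector (green, Cy3), both kept in bFGF. It is 1 of the 2 arrays of the series, and its genes were taken by rule: every probe for a gene that was well above background in at least 1 channel and whose accession could be named. This left 10271 genes of the 15442 named on the array. The cells were primary precursors from the cortex of SD rat embryos at day 14, grown in N2 medium with 10 ng/mL bFGF. They were transiently transfected with 4 µg of plasmid, either MSCV-IRES-EGFP alone or the same plasmid with rat Bcl-2 (rBcl-2-MSCV-IRES-EGFP), so that both groups carry the EGFP reporter. No sort for transfected cells is stated in the labels, nor how many cultures or embryos were pooled. The other array of the series, used here only for its channels, is labelled as empty vector cells 2 days after withdrawal of bFGF (red) against empty vector cells with bFGF (green). There was 1 array and no dye swap, so the differences given here have no replicate to check them and none was tested.

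The direction of the ratio is not settled. Ratios are given as red over green, so "higher in red" means higher in the channel labelled Bcl-2. The design line of the series names vector cells without bFGF and Bcl-2 cells with bFGF as the compared conditions, whereas the label of the green channel names vector cells with bFGF. The log2 ratios of both arrays, which share dye orientation and the labelled control, had r = -0.68 over 42011 gene spots, and -0.14 with the ratio that the scanner software Feature Extraction computed. Over 26861 spots well above background in every channel, r was -0.84 after loess. There the log2 difference between the green channel here and the red channel of the other array had an SD of 0.14. Against the other green channel, labelled as the same control, that SD was 0.40. Between the red channel here and that other green channel it was 0.15, and between the red and green channels here 0.38. By these SDs each channel was nearest to a channel with a different label. If the sign is turned, every gene and list called higher here becomes lower by the same amount, and the reverse, and medians so turned are given in brackets for the main lists.

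Bcl-2 is the founding member of a protein family that controls whether the outer mitochondrial membrane is opened during apoptosis, and its overexpression protects many cell types from death signals. bFGF keeps cortical precursors dividing and holds back their differentiation into neurons and glia. Dividing cells make cholesterol from acetyl-CoA through the mevalonate pathway, whose genes are switched on together by the transcription factor SREBP-2 when sterols are low, while astrocytes make apolipoprotein E to carry lipid between cells.

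The Bcl2 probe gave a normalised intensity of 546 in red and 555 in green, a log2 ratio of -0.023. Normalised intensity is in scanner units after loess and includes an added offset of 50, so it can be compared between channels of 1 probe but not between probes. The channels were thus nearly equal at this probe. With the green channel of the other array as control the value was 0.20, and with the Feature Extraction ratio 0.045. It is not known whether this probe reads RNA from the plasmid, which makes it a weak check of the label.

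Of 29 listed BCL-2 family genes and partners, 23 were measured, 5 were not well above background in either channel (Bcl2a1, Bcl2l10, Bcl2l14, Bcl2l11 and Pmaip1) and 1, Bcl2l13, had no named probe. Their median log2 ratio was -0.062 (0.062 when turned), against -0.01 over all genes. A gene passes the 2-fold limit used here when its log2 ratio is at least 1 or at most -1 and all its kept probes have 1 sign. Of the 23 members 0 passed it above and 1 below, against 0.555% of all genes above and 2.00% below. The member was Bbc3, which encodes the BH3-only killer Puma, with 771 in red and 1909.9 in green (log2 ratio -1.31). Among the relatives that protect from death, Bcl2l2 (Bcl-w) was at 0.46 and Mcl1 at -0.083. Bcl2l1, which encodes Bcl-xL, had a median of 0.13 over 4 probes that ranged from 0.012 to 0.89, and the highest of these was a dim probe. The pore formers Bax at -0.71, Bok at -0.61 and Bak1 at -0.39 all lay below 0, under the limit. Their ratios were below those of all the guardians named. With the other array's green channel as control this order did not hold, as Mcl1 was at -0.22, Bok at -0.21 and Bak1 at -0.0068. The remaining killers were nearer 0 after loess, with Bad at -0.25, Bik at -0.17, Bid at 0.12 and Hrk at 0.17. Bmf was well above background in green alone. Bid and Hrk were dim, at 173 and 145 in red, and their Feature Extraction ratios were 0.54 and 1.12. The mitophagy receptors Bnip3 at 0.12 and Bnip3l at 0.13, with Bnip2 at 0.091, lay a little above 0. The partners Bag1 at 0.35, Bag3 at -0.54, Fkbp8 at -0.24, Becn1 at -0.18 and Bnip1 at -0.11 lay on both sides of 0. Bcl2l12 was at -0.062 and Bcl2l15, dim at 150 in red and 149 in green, at 0.0085.

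Median net signals over gene spots were 201 in green and 266 in red, and 66.6% and 66.1% of gene spots were well above background. Repeat spots of 1 probe differed with a median SD of 0.039 on the log2 scale over 1179 probes, and probes of 1 gene with a median SD of 0.11. These spreads are technical, come from 1 hybridisation and say nothing of how cultures differ. Of the measured genes, 8532 rest on 1 probe, and of the 1739 with several, 539 had probes on both sides of 0. Probes that lie in near-identical families, such as metallothioneins, glutathione transferases and olfactory receptors, can bind RNA of a relative.

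In all, 57 genes (0.555%) passed the limit above 0 and 205 (2.00%) below it. So higher genes made up 21.8% of the counted genes, or 78.2% when turned. The split was 358 to 702 with the Feature Extraction ratio and 16 to 4 with the other array's green channel as control. The log2 ratios of all genes had an SD of 0.37, with quartiles of -0.22 and 0.15, and ran from -3.20 to 2.04. Of the counted genes, 20 were at least 4-fold lower and 2 at least 4-fold higher, and 97 belong to 1 or more of 46 gene lists covering 1737 genes. Each list count below is to be read beside the shares over all genes, 0.555% above and 2.00% below.

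**Figure D1:**
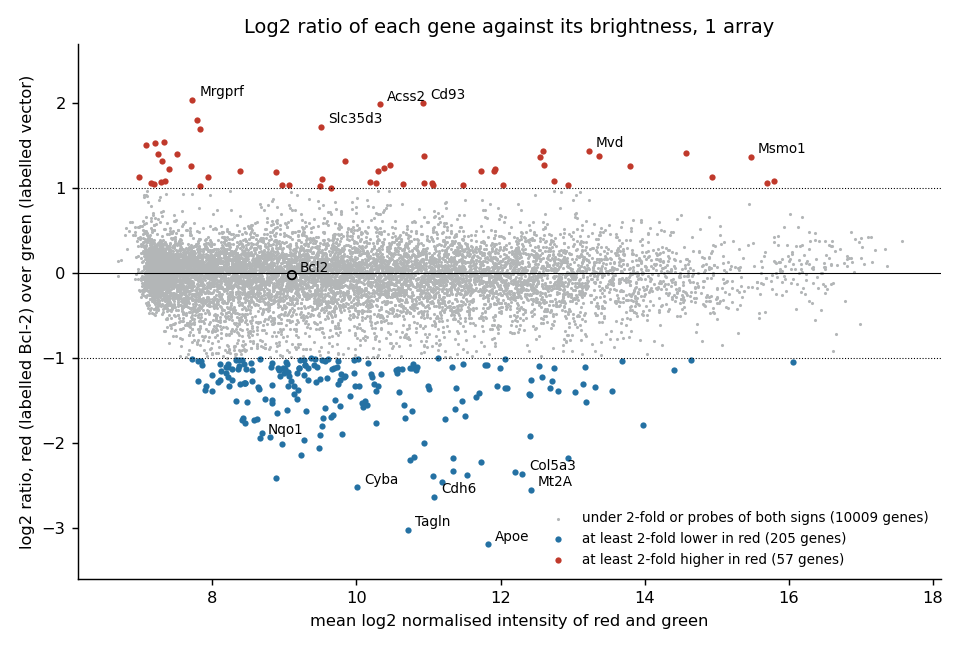
Log2 ratio of red (labelled Bcl-2) over green (labelled vector) for each of the 10271 measured genes (vertical axis) against the mean log2 normalised intensity of both channels (horizontal axis). The 57 genes at least 2-fold higher are red, the 205 at least 2-fold lower are blue, dotted lines mark the limit, and Bcl2 (circle) lies at -0.023.

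Among genes well above background in both channels, most of the 15 furthest above 0 were enzymes or regulators of sterol and acetyl-CoA metabolism. Cd93, a membrane glycoprotein of endothelial and myeloid cells, led these with 3877 in red and 966 in green, a log2 ratio of 2.00. Acss2, which makes acetyl-CoA from acetate in the cytosol and nucleus, followed with 2559 against 645, a log2 ratio of 1.99. Slc35d3, a nucleotide sugar carrier family member, was at 1.72 with its 2 probes at 1.33 and 2.12. Outside lipid metabolism the 15 highest also held Nr4a1, an orphan nuclear receptor and immediate early gene, at 1.32, Zcchc12 at 1.27 and the taurine transporter gene Slc6a6 at 1.26. Slc6a6 was dim, with 324 in red and 135 in green, and its Feature Extraction ratio was 2.88.

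Genes measured in red alone, such as Mrgprf, are described apart. The genes furthest below 0, again in both channels, were a mixed group. Apoe, the lipid carrier of astrocytes, had 1199 in red and 10988 in green, a log2 ratio of -3.20. Tagln, an actin-binding protein of smooth muscle, had 588 against 4779, a log2 ratio of -3.02, and Cdh6, a cadherin of cell adhesion, 871 against 5393, a log2 ratio of -2.63. Green was over 4 times as bright as red at each of these probes. Cyba, the p22phox subunit of NADPH oxidase, had 431 against 2474 at -2.52. The small heat shock protein gene Cryab had 998 against 5473 at -2.46, and the cilium microtubule gene Pierce1 was at -2.41. The rest had other roles. Mgmt, which repairs alkylated guanine, was at -2.39, the phospholipase gene Plcd4 at -2.33, the secreted peptide gene Apln at -2.23, the mitochondrial protein gene Chchd10 at -2.20 and the phosphatase inhibitor gene Ppp1r1a at -2.17. The others of the 15 lowest, Mt1, Mt2A, Myl9 and Col5a3, are described with their groups.

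**Figure D2:**
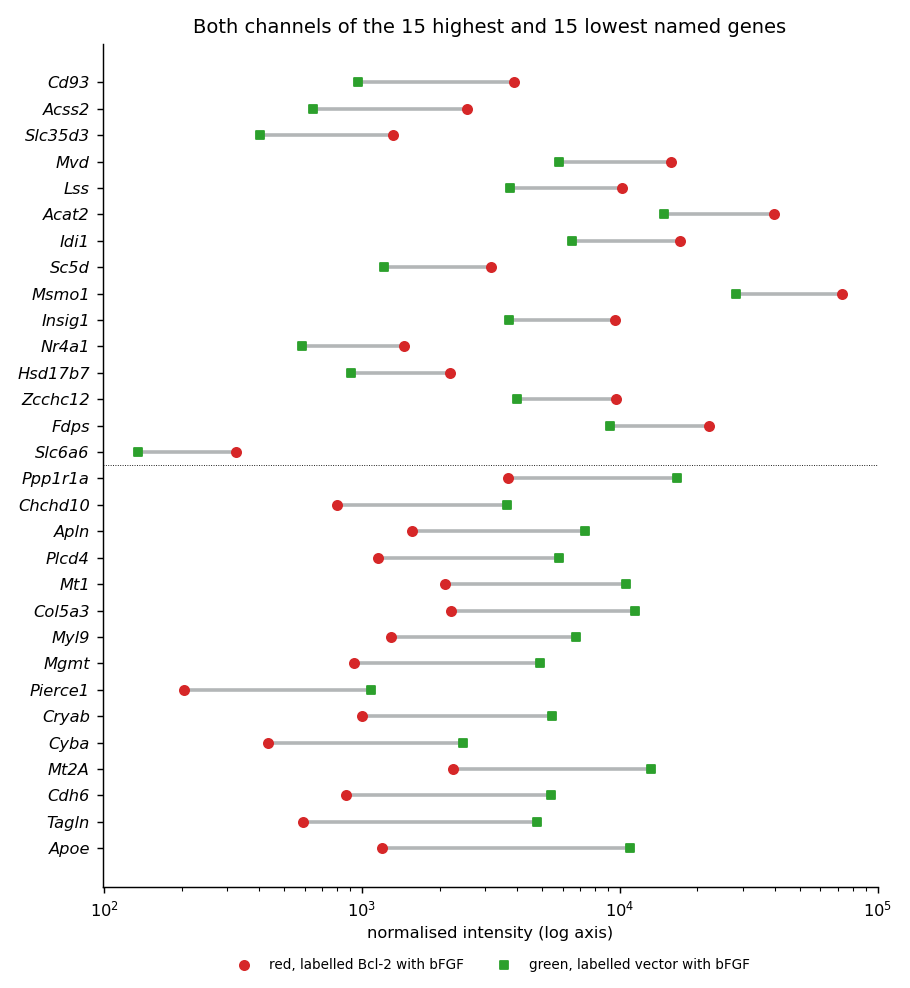
Normalised intensity (log axis) in red (circles, labelled Bcl-2 with bFGF) and green (squares, labelled vector with bFGF) for the 15 highest and the 15 lowest named genes, ordered by log2 ratio with a dotted line between them. The gap is widest for Apoe, at 1199 against 10988, and among the higher genes for Cd93, at 3877 against 966.

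Cholesterol synthesis was the list furthest from 0. Its 31 measured members of 32 had a median log2 ratio of 0.97 (-0.97 when turned), and 26 lay above 0. The limit was passed by 15 members above 0 and by 1 below, against 0.555% and 2.00% of all genes. At the entry of the pathway, Acat2, which joins acetyl-CoA units, had 39594 in red and 14873 in green, a log2 ratio of 1.41. Hmgcs1, the HMG-CoA synthase, had 77215 against 36849.8 at 1.07. The mevalonate kinases Mvk and Pmvk were at 0.43 and 0.43, while Mvd, the decarboxylase after them, had 15760.4 against 5799, a log2 ratio of 1.44. Neighbouring steps of the pathway thus differed by about 1 on the log2 scale.

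The later enzymes varied in the same way. The isomerase gene Idi1 had 17074 in red and 6544 in green at 1.38, and the farnesyl diphosphate synthase gene Fdps was at 1.27, with its 2 probes at 1.21 and 1.32. The squalene synthase gene Fdft1 was at 0.34 and the squalene epoxidase gene Sqle at 0.63, both under the limit. Lss, which closes the sterol rings, was at 1.43 with 10159 against 3758. The steps after ring closure were high together. Among enzymes that trim lanosterol to cholesterol, Msmo1 was at 1.37, Sc5d at 1.38, Hsd17b7 at 1.28, Nsdhl at 1.24, Tm7sf2 at 1.06 and Cyp51 at 1.04. Ebp at 0.97 and Dhcr7 at 0.92 lay just under the limit.

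The regulators and transporters of the list were spread more widely. Insig1, which holds the SREBP complex in the endoplasmic reticulum when sterols are plentiful, had 9564 in red and 3711 in green at 1.37, while its relative Insig2 was at 0.12. Srebf2, the SREBP-2 gene, was at 0.38, and Scap, its escort protein gene, at -0.088. The genes of the regulating complex thus differed among themselves. Stard4, a carrier of sterols inside the cell, was at 1.05. In the other direction lay the sterol exporters, Abca1 with 174 against 421 at -1.28 and Abcg1 at -0.79, under the limit. With the other array's green channel as control the list median was -0.15, and 0 of the 31 passed the limit in either direction.

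Promoter sequences were read from a RefSeq table of build GRCr8 that holds 22 of the 31 measured members, of which 14 passed the limit in either direction. The search covered the 250 bases before each gene start on both strands, with matches of different motifs free to overlap. The CCAAT box, a binding sequence of the factor NF-Y that acts beside SREBP at sterol genes, was found in 16 of the 22 promoters (72.7%). It was found in 36.0% of the 8477 promoters of genes measured on the array and in 34.3% of all 27457 promoters of the table. A sterol regulatory element written as TCACNCCAC was found in 0 of the 22 and in 0.976% of all promoters. The lack of a match says only that these letters are not in the window. These 3 members show from 2 to 5 boxes each, with CCAAT or its reverse ATTGG in capitals:
Fdps (chr2:176804817-176805066, minus strand): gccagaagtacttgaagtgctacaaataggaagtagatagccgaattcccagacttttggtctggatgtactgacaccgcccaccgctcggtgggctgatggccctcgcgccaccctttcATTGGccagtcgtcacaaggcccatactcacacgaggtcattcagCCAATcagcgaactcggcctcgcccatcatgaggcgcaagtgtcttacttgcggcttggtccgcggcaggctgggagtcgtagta
Msmo1 (chr16:29746863-29747112, plus strand): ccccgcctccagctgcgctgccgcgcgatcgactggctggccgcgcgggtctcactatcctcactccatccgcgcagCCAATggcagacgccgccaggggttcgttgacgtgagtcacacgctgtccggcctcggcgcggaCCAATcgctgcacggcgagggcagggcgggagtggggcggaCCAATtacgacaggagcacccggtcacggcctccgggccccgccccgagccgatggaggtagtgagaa
Nsdhl (chrX:155817110-155817359, plus strand): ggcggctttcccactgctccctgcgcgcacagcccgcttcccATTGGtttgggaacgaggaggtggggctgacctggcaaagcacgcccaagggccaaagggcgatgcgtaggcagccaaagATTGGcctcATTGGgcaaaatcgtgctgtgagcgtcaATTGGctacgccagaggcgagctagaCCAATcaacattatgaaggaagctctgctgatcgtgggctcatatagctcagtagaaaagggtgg

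Fatty acid synthesis was the list with the next highest median, 0.44 (-0.44 when turned), and 5 of 18 measured members passed the limit above 0 and 0 below it. Beside Acss2 these were Acly, which releases acetyl-CoA from citrate, at 1.14, and Acsl4, which activates polyunsaturated fatty acids, at 1.11. The others were the desaturase gene Scd, with 9944 in red and 4683 in green at 1.09, and Aacs, which activates acetoacetate, at 1.04. The steps that commit carbon to fatty acids differed less. Fasn, the fatty acid synthase gene, was at 0.46 and Acaca, which commits acetyl-CoA to the pathway, at 0.33. The elongase gene Elovl6 was at 0.86, Acsl3 at 0.70 and the desaturase genes Fads2 and Fads1 at 0.55 and 0.051. The synthesis median was -0.029 with the other array's green channel as control. Oxidation of fatty acids had a median of -0.23, with 15 of 19 below 0 and 1 past the limit, Cpt1c, a carnitine palmitoyltransferase family member of neurons, at -1.12. Etfb at -0.83, Hadh at -0.78 and Echs1 at -0.68, which act in mitochondrial beta-oxidation, were under it, and the gatekeeper Cpt1a was at 0.15.

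Lipoprotein carriers and receptors lay on both sides. The list had a median of -0.24 over 18 members, and 3 passed the limit below 0 and 1 above it. Apoe was joined below by Apoc1, its neighbour in the genome, at -1.32 after loess and -3.18 with Feature Extraction, and by Apod, a lipocalin of glia, at -1.12. Clu, another secreted lipid carrier of astrocytes, was at -0.74 and the endocytic receptor gene Lrp2 at -0.80, both under the limit. Scarb1, the receptor for high density lipoprotein, was at 1.06 with 2818 in red and 1353 in green. Lrp1, the broad scavenger receptor gene, was at -0.25.

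Astrocyte and radial glia genes had the lowest median of the 46 lists, -0.57 (0.57 when turned). Of 28 measured members 7 passed the limit below 0 and none above, against 2.00% and 0.555% of all genes. Aldh1l1, a folate enzyme used as an astrocyte marker, had 248 in red and 1004 in green, a log2 ratio of -2.02. Ndrg2 had 2793 against 10569, a log2 ratio of -1.92. The others past the limit differed less. The matrix protein gene Sparc was at -1.39, Ttyh1 at -1.33, Mlc1 at -1.28, the sodium pump subunit gene Atp1b2 at -1.22 and Glul, the glutamine synthetase gene, at -1.13. S100b, at -0.96 as the median of probes at -1.65 and -0.26, and at -1.65 by its brightest probe, lay on either side of the limit by probe. Hopx at -0.94 and the radial glia gene Fabp7 at -0.91 lay just under the limit, and the glutamate transporter gene Slc1a3 at -0.75. Gfap, the intermediate filament gene of mature astrocytes, did not reach well above background in red or green, and Aqp4 was dim, at -0.42 after loess and -2.33 with Feature Extraction. Set against the other array's green channel, the list had a median of 0.058. As RNA was taken from whole cultures, fewer cells of a type and less RNA per cell cannot be told apart here.

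The labelled cell type was checked against its markers. Of 10 neural progenitor markers, 8 were well above background, Msi1 was not, and Sox1 had no named probe. Nes, the intermediate filament of neural stem cells, had 19394 in red and 23479.7 in green, a log2 ratio of -0.28, and the stem cell factor Sox2 14806 against 17856, a log2 ratio of -0.27. Pax6 was at -0.14, with 449 in red and 494 in green, and Prom1 at -0.56, with 669 against 987. The Notch target Hes5 was at 0.087, with 525 against 494, and Vim at 0.56. Lowest of the 8 were Fabp7 at -0.91 and Slc1a3 at -0.75, which are also named with the glial genes above. The wider list of progenitor and neurogenic factors had a median of -0.14 with 0 of 21 past the limit. Hes1, which holds precursors back from neurogenesis, was its lowest member at -0.69.

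Neuronal genes had a median of -0.15. Against 2.00% of all genes, 3 of 25 were at least 2-fold lower. Among them were the adhesion molecule gene Ncam1 at -1.25 and the microtubule protein gene Map1b at -1.02. The neuronal tubulin gene Tubb3 was at -0.58, the migration gene Dcx at -0.49 after loess and -1.54 with Feature Extraction, and the dendrite gene Map2 at 0.057. GABAergic interneuron genes had a median of -0.046 over 11 members, with 0 past the limit, and Gad1 was well above background in green alone. Among 6 glutamatergic genes, 1 passed the limit, the neurogenic factor gene Neurod2, measured in red alone and at least 1.54-fold higher. Oligodendrocyte lineage genes had a median of -0.0029 over 14 members, with Gal3st1, which makes the myelin lipid sulfatide, at 1.03 and Pdgfra at -0.47. Olig1 was at 0.029, with 60839 in red and 59624 in green, and Olig2 at 0.26.

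Markers of other cells were mostly dim. Of 5 microglial markers 4 were measured, at 148 to 748 in red and 142 to 747 in green, and Ptprc was not well above background. All 4 were at near equal levels in both channels. Among the 11 measured microglia and blood genes, 1 passed the limit on each side, Cyba and the globin gene Hba-a1 at 1.04. With no filter on dim probes Hba-a1 was under the limit at 0.45. Their list median was 0.10. Of the 6 endothelial and pericyte genes measured, with a median of 0.012, Cd93 alone passed it. Of the endothelial markers, Kdr at -0.22 and Cdh5 at 0.078 were measured and Pecam1 and Cldn5 were not well above background. Whether cells of these types contribute to the values was not tested.

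Several genes of contraction and matrix were lower in red. In the contractile list, with a median of -0.23, 4 of 27 members passed the limit below 0 and none above. Beside Tagln these were Myl9, a regulatory myosin light chain, with 1300.3 in red and 6779.8 in green at -2.38, Acta2, smooth muscle actin, at -1.93, and the tropomyosin gene Tpm2 at -1.07. The transcription factor gene Srf, which drives such genes, was at -0.081, and the non-muscle myosin gene Myh9 at 0.20. Matrix genes had a median of -0.33, and 4 of 36 passed it below 0. Col5a3, a fibrillar collagen chain, had 2221 against 11425, a log2 ratio of -2.36, and the protease inhibitors Timp2 and Timp4 were at -1.78 and -1.63. Col6a2 was at -1.10, the gelatinase gene Mmp2 at -0.98, the basement membrane collagen gene Col4a1 at 0.0071 and the fibrillin gene Fbn2 at 0.81. Of 28 adhesion genes, with a median of -0.084, Cdh6 alone passed the limit, with N-cadherin (Cdh2) at -0.26 and Itgb1 at -0.069.

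Genes of fibroblasts and meninges also lay mostly below 0. Of 15 measured members 3 passed the limit below 0 and 14 lay below 0, with a median of -0.21. Col1a2 had 1325 in red and 4345 in green at -1.71, Col1a1 was at -1.10 and Col3a1 at -1.08. With the other green channel as control these 3 kept their sign, whereas Col5a3 and Timp2 lay nearer 0 at -0.23 and -0.11. The values were -1.01 for Col1a2, -0.61 for Col1a1 and -0.77 for Col3a1, and Mgp, a matrix calcification inhibitor, was at -1.03, against -0.68 with its own. Of the 4 markers, Col1a1, Col3a1 and Dcn were at 142 to 580 in red and 161 to 1245 in green, with Dcn at -0.18, and Lum was not well above background. The part of such cells in the matrix values was not tested.

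The metallothionein genes Mt1 and Mt2A, whose small products bind zinc and copper, were far lower in red, while zinc transporters were near 0. Mt1 had 2103 in red and 10621 in green, a log2 ratio of -2.34. Mt2A had 2263 against 13241, a log2 ratio of -2.55, with its 2 probes at -3.08 and -2.02. The brain form Mt3 was at -0.43, under the limit. The other 15 measured members, zinc carriers and the metal sensor Mtf1, lay between -0.49 (Slc39a8) and 0.33 (Slc30a5), with Mtf1 at 0.18. The list median was therefore -0.10, near that of all genes.

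The promoters of both genes that passed the limit are shown because they carry repeats of the metal response element core, TGCACNC or TGCGCNC on either strand, in capitals:
Mt1 (chr19:10832976-10833225, minus strand): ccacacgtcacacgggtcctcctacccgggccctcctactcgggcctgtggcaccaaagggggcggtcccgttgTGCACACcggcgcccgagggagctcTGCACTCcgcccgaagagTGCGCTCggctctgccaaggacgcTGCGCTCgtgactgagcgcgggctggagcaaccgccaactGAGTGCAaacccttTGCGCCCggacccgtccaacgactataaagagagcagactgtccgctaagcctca
Mt2A (chr19:10838709-10838958, minus strand): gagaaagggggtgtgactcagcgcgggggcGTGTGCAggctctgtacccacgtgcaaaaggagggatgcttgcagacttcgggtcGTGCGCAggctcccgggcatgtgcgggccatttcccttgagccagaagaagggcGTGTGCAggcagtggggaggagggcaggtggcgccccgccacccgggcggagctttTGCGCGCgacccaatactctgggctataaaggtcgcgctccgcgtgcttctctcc
There were 6 matches in Mt1 and 4 in Mt2A. The core was found in 10 of 15 list members with a promoter in the table (66.7%), in 31.3% of promoters of measured genes and in 21.2% of all. A match is a description of sequence and not a bound site.

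Glutathione and antioxidant genes, many of them targets of the factor NRF2, had a median of -0.40 (0.40 when turned). Of 50 measured members 38 lay below 0, and 8 passed the limit below 0 and none above, against 2.00% and 0.555% of all genes. Nqo1, a quinone reductase, had 208 in red and 797 in green, a log2 ratio of -1.94 after loess and -2.85 with Feature Extraction. The transferase genes Gstm1, Gstt2, Gstm7 and Gsta1 were at -1.48, -1.17, -1.15 and -1.08, and the epoxide hydrolase gene Ephx1 at -1.30. Sod3, the secreted superoxide dismutase gene, was at -1.27 and Slc7a11, the cystine importer gene that supplies glutathione synthesis, at -1.14. Not all known targets were so low. Hmox1, another NRF2 target, was at -0.57 and Gclc, the rate-limiting enzyme gene of glutathione synthesis, at -0.061, both under the limit, and Gclm was not well above background. The NRF2 gene itself, Nfe2l2, was at -0.37 and its inhibitor gene Keap1 at -0.076. The list median was -0.036 with the other green channel as control. A core of the antioxidant response element, TGACNNNGC, was found in 7 of 39 members' promoters (17.9%) and in 12.4% of those of measured genes. Of the 6 members past the limit with a promoter in the table, 1 had it. It was found in 11.6% of the promoters of all genes at least 2-fold lower and in 28.6% of those at least 2-fold higher.

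Genes of motile cilia and choroid plexus had a median of -0.30, with 5 of 17 past the limit below 0 and none above. Pierce1 had 204 in red and 1085 in green. Foxj1, the master regulator of motile cilia, had 270.3 against 845 at -1.64. Rfx2, another ciliary factor gene, was at -1.18 and the sperm tail gene Enkur at -1.04. Ttr, the transthyretin of choroid plexus, was well above background in green alone and at least 2.42-fold lower in red. The radial spoke genes Rsph9 and Rsph1 were under the limit at -0.54 and -0.47, and Cfap52 was at 0.55, so that the list did not move as 1 block.

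DNA replication genes lay above 0 by small amounts, while mitosis genes did not. Of 48 replication and S phase genes 43 were above 0, with a median of 0.27 (-0.27 when turned). Of them 2 passed the limit above 0, against 0.555% of all genes. These were Pole2, a subunit of DNA polymerase epsilon, at 1.04, and Orc1, which marks replication origins, at 1.01. The helicase loader gene Cdc6 was at 0.71, Hells at 0.77, Mcm7 at 0.64, Mcm3 at 0.57, Mcm2 at 0.22 and the clamp gene Pcna at 0.29. With the other green channel as control the replication median was -0.089, on the other side of 0. Of 43 mitosis genes 17 were above 0, with a median of -0.033 and 0 past the limit. The proliferation marker Mki67 was at -0.16, Cdk1 at -0.20 and Ccnb1 at 0.16, and Mad2l1 of the spindle checkpoint stood highest at 0.64. The 22 D cyclins and CDK inhibitors and their relatives had a median of -0.10, with Ccng1 alone past the limit. Among G1 regulators, the cyclin D1 gene Ccnd1 was at 0.95 and Myc at 0.86, both under the limit. Cdk6 was at -0.91, the inhibitor genes Cdkn1a (p21) at -0.81 and Cdkn1b (p27) at 0.052. The value of Cdkn1a is the median of probes at -1.38 and -0.23, and its brightest probe, at -1.38, lay past the limit.

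Targets of p53 lay on both sides of 0, and those past the limit were all below it. The 31 measured targets had a median of -0.18. Of them 4 passed the limit below 0 and none above, against 2.00% and 0.555% of all genes. Ccng1, cyclin G1, had 496 in red and 1395 in green at -1.49, and beside Bbc3 these were Ptprv at -1.38 and Tp53inp1 at -1.21. Of the 31, 12 lay above 0, up to 0.55. Below 0 but under the limit, Cdkn1a was at -0.81, Fdxr at -0.70, Phlda3 at -0.70 and Mdm2, the ligase that degrades p53, at -0.31. Of 30 caspases and execution genes 0 passed the limit, with a median of -0.090. Casp6 was lowest at -0.76, Casp9, which starts the cascade, was at -0.22 and Apaf1, the scaffold of the apoptosome, at -0.11.

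Ribosome biogenesis shifted as a group without single large changes. Of 53 nucleolar and assembly genes 51 lay above 0, with a median of 0.36 (-0.36 when turned), and 0 passed the limit. The nucleolar GTPase gene Gnl3 had 11621 in red and 6156 in green at 0.92. The RNA polymerase I subunit gene Polr1b was at 0.80, Wdr43 at 0.77 and nucleophosmin (Npm1) at 0.54, while nucleolin (Ncl) was at 0.051. With the other green channel as control the median was -0.14, on the other side of 0. Of 74 cytosolic ribosomal proteins 67 lay above 0 with a median of 0.16, and Rpl15 stood highest at 0.65. This median was 0.086 with Feature Extraction and 0.10 with the other control. Proteasome subunits, at 0.014 over 39 members, and splicing factors, at 0.093 over 52, lay nearer 0. Of the splicing genes Prpf19, a ubiquitin ligase of the spliceosome, was at -1.05 and at -1.25 with the other control.

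Genes that report FGF and ERK signalling were mixed. Of 17 ERK feedback genes 1 passed the limit, Phlda1, with 714 in red and 312 in green at 1.19, and the median was 0.17. The Sprouty inhibitors Spry4 and Spry2 were at 0.77 and 0.55, while the ERK phosphatase gene Dusp6 was at -0.33 and Etv5, an FGF-induced factor gene, at -0.082. Of 25 immediate early genes, with a median of 0.037, Nr4a1 alone passed it with 1455 in red and 583 in green, with Egr1 at 0.75, Fos at -0.12, Jun at 0.058 and Fosl1 at -0.91. Of 13 FGF ligands and receptors, with a median of -0.030, 0 passed it. Among FGF receptors Fgfr3 was at -0.99, Fgfr1 at -0.41, and Fgf2, the gene of bFGF itself, at -0.030. Fgfr2 had 3 probes that ranged from -1.49 to 0.19, so its median of -0.22 does not describe them.

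The other signalling lists had 0 to 2 members past the limit, against 2.00% of all genes on the lower side. In the BMP list, with a median of -0.16, the dominant negative factor gene Id4 alone passed it, at -1.33, and Id1 was at -0.39. In the Wnt list, with -0.047, the secreted antagonist gene Dkk3 was at -1.88 with 216 in red and 794 in green, and the ligand gene Wnt7a at -1.08, whereas the target Axin2 was at -0.33 and Lef1 at 0.56. Both lists held members on either side of 0. In the Notch list, with -0.10, 0 of 26 passed it, with the gamma-secretase subunit gene Aph1a at -0.86, Notch1 at -0.25, Notch2 at 0.50 and the ligand gene Jag1 at 0.52. In the IGF list, with 0.0019, the binding protein gene Igfbp3 alone passed it at -1.52, and the receptor gene Igf1r was at -0.0040. These ligand lists had few large values. In the neurotrophin and EGF list, with -0.080, the receptor gene Ntrk2 was at -0.69 and Egfr at -0.54. In it 0 of 23 passed the limit. Among 39 guidance genes, with -0.14, the ephrin receptor gene Epha5 was at -1.18, and among 51 channels and transmitter receptors, with -0.19, the GABA receptor gene Gabrg1 was at -1.80 and the sodium channel subunit gene Scn3b at -1.32.

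Lysosomal genes were lower as a group. Of 48 measured 44 lay below 0, with a median of -0.35 (0.35 when turned). The limit below 0 was passed by 3, against 2.00% of all genes. These were Ctsa at -1.11, Psap, whose product is cut into the saposins, with 1243 in red and 2676 in green at -1.11, and the acid glucosidase gene Gaa at -1.02. Cathepsin D (Ctsd) was at -0.87, the membrane protein gene Lamp1 at -0.58, the autophagy receptor gene Sqstm1 at -0.31 and Tfeb, which drives lysosomal genes, at -0.052. The lysosomal median was -0.030 with the other green channel as control. Of 66 respiratory chain genes 54 lay below 0, with a median of -0.16 and 0 past the limit, from -0.61 (Ndufa10) to 0.17 (Uqcrfs1).

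Glycolysis and stress genes went both ways. Ldha, which turns pyruvate into lactate, was at 1.08, the hypoxia gene Ankrd37 at 1.13 and Ddit4, a stress-induced inhibitor of mTORC1, at -1.21, within a list median of 0.18 over 37 members. The kinases Pfkp and Pfkl of the committed step were at 0.95 and 0.75, Pdk1 at -0.92, the glucose transporter gene Slc2a1 at 0.23 and Vegfa at 0.27. In the unfolded protein and ATF4 list, with a median of -0.15, 5 of 48 passed the limit below 0. They were Ddit4, Slc7a11, the arginine transporter gene Slc7a3 at -1.68, Derl3 at -1.11 and the serine synthesis gene Psat1 at -1.02, while Derl3 was under the limit at -0.64 with no filter on dim probes. Atf4 was at 0.19, Ddit3 at -0.15 and the chaperone gene Hspa5 at -0.22. Of 32 heat shock genes 25 lay above 0, with a median of 0.26. Cct8 of the cytosolic chaperonin was at 0.67 and Hsp90aa1 at 0.31, but the small heat shock genes Cryab and Hspb1, at -0.97, were on the other side.

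Interferon and antigen presentation genes had a median of -0.31, with 2 of 34 past the limit below 0, against 2.00% of all genes. These were Ifi27 at -1.43 and Ifi30, a lysosomal thiol reductase, at -1.41, while the peptide transporter gene Tap2 was at -0.93, Gbp2 at -0.91, Irf1 at 0.39 and Isg15 at -0.15. Among 32 chromatin genes, with a median of 0.11, the deacetylase gene Hdac11 was at -1.40, Smarca2 at -0.74, Ezh2 at 0.11 and Hdac1 at 0.031.

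**Figure D3:**
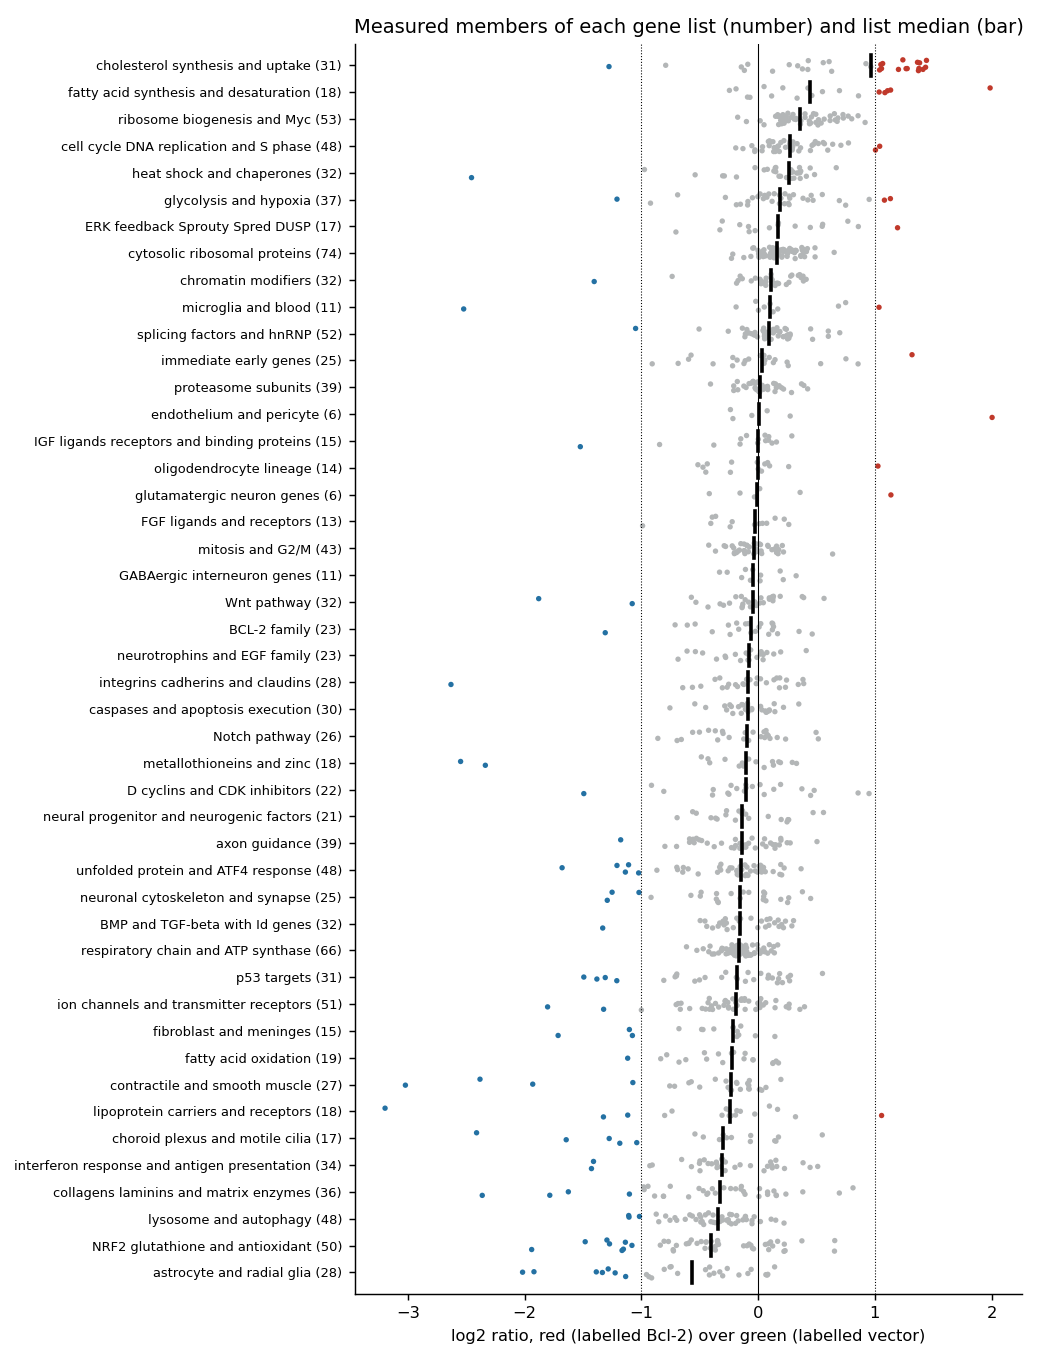
Log2 ratio of red (labelled Bcl-2) over green (labelled vector) for the measured members of each of the 46 lists, whose number is in brackets; black bars are list medians, red and blue points are members at least 2-fold higher or lower, and vertical position within a row has no meaning. Medians run from -0.57 (astrocyte and radial glia) to 0.97 (cholesterol synthesis and uptake), and most lists hold single members far from their median.

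Genes measured in 1 channel alone form a group of their own. Of the measured genes, 296 were well above background in red alone and 423 in green alone. Their fold is a bound: the dim channel was taken at its own value or at the lowest value still well above background, whichever was greater, and dye bias is in it. Mrgprf, an orphan receptor gene, was higher in red by at least 4.03-fold, Rab39a, a small GTPase of vesicle traffic, at least 3.51-fold and Mgat3, a glycosyltransferase gene, at least 3.24-fold. The hormone gene Lhb was at least 2.65-fold higher, the mast cell receptor gene Milr1 at least 2.46-fold, the cytokine receptor gene Il22ra1 at least 2.18-fold and the ligand gene Wnt10b at least 2.16-fold. The olfactory receptor genes Or7a35 and Or10p22 and the glycogen gene Ppp1r3a were at least 2.32-fold, 2.23-fold and 2.11-fold higher. With no filter on dim probes the log2 ratios of Or10p22 and Ppp1r3a were under the limit, at 0.62 and 0.58. In green alone, Cyp4f1, a fatty acid hydroxylase gene, was at least 2.59-fold lower in red, Flvcr2 at least 1.98-fold and Slc22a3, an organic cation transporter gene, at least 1.97-fold.

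Control spots bear on this group. Of 606 spots for spike-in and other control sequences, 75 (12.4%) were well above background in red and 0 in green, with net red signals from 7.5 to 245.5. On the other array 30 were so in red and 4 in green. Of the 57 higher genes, 15 were measured in red alone, with net red signals from 135.5 to 488 and a median of 223.5. For 10 of these 15 the signal was at or below the highest control spot. Of the 205 lower genes, 2 were measured in green alone, Ttr and Cyp4f1. For 4 of these 17 genes the "at least" fold was under 2.

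Changing the control channel removed nearly every call. The green channel of the other array carries the same label, vector cells with bFGF, so the red channel was also set against it. Then 16 genes passed the limit above 0 (0.156%) and 4 below it (0.0389%), and the SD over all genes was 0.16 in place of 0.37. Of the 57 higher genes 13 were also higher by this control (22.8%), and of the 205 lower genes 2 were also lower (0.976%), Col1a2 and Prpf19. Apoe moved from -3.20 to 0.34, Tagln from -3.02 to 0.16, Mt2A from -2.55 to -0.053, Cd93 from 2.00 to 0.12, Acss2 from 1.99 to 0.0067 and Mvd from 1.44 to -0.22. All of these lay nearer 0 by this control. Side by side, the ratio of the other array, with its own green channel, was 3.54 for Apoe, -1.92 for Cd93, -1.92 for Acss2 and -1.62 for Mvd, and it shares the labelled control. By the other control, all red-alone genes named above with a bound over 2-fold also passed the limit. They ran from 1.08 (Or7a35) to 2.35 (Mrgprf) on the log2 scale, with Rab39a at 1.84 and Lhb at 1.63. Most of the 13 shared higher genes were thus dim genes measured in red alone. The same red values enter both versions, and these genes were measured through red alone, so passing by both is not an independent check. The red channel of the other array is labelled as vector cells without bFGF. There, most of these genes were also at least 2-fold higher in red, such as Mrgprf at 2.82, Lhb at 2.07 and Rab39a at 1.84. Mgat3 at 0.38 and Or7a35 at -0.27 were not. Dye bias of single genes enters both versions, as red is set against green in each, and its part was not tested.

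**Figure D4:**
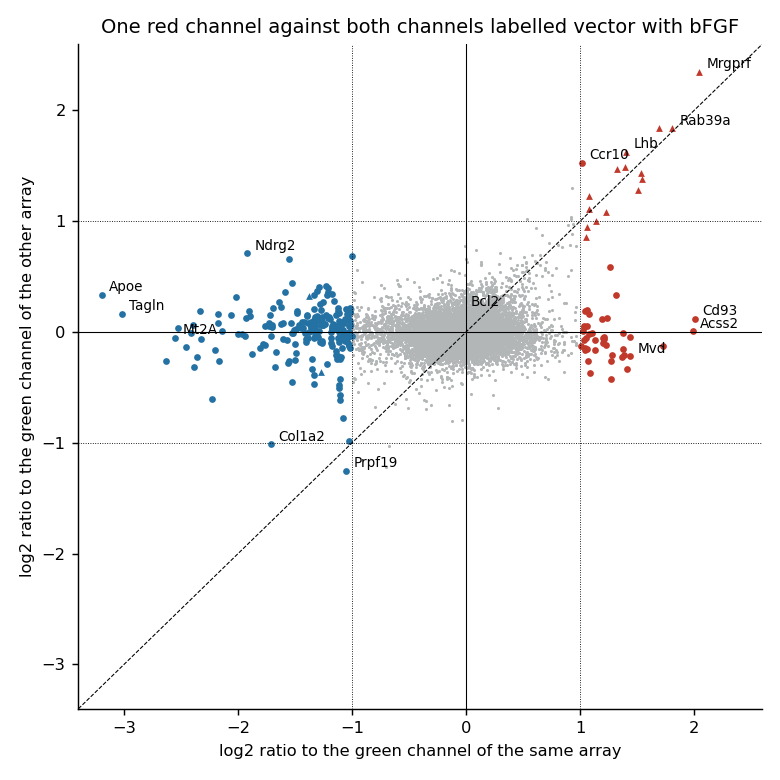
Log2 ratio of the red channel labelled Bcl-2 to the green channel of the same array (horizontal axis) and to the green channel of the other array, which carries the same label (vertical axis), for 10271 genes; red and blue mark genes at least 2-fold higher or lower by the first, triangles those among them measured in 1 channel alone, and the dashed line is equality. Genes such as Apoe (-3.20 and 0.34) and Acss2 (1.99 and 0.0067) lie near 0 on the vertical axis, while Mrgprf (log2 2.35 on the vertical axis), Col1a2 and Prpf19 lie near the diagonal or on the same side.

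The way the signals were processed changed sizes rather than sides for the genes past the limit. The Feature Extraction ratio called 358 genes higher (3.49%) and 702 lower (6.83%), among them all 57 higher and 203 of the 205 lower genes of the loess ratio, and had an SD of 0.71 over all genes. Apoe was at -3.29 and Cd93 at 2.22 by that ratio, near their loess values. Some genes near background in red moved further: Apoc1 from -1.32 to -3.18, Pierce1 from -2.41 to -3.38 and Nqo1 from -1.94 to -2.85. With an offset of 10 in place of 50 they were at -1.61, -2.66 and -2.17, short of those values.

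**Figure D5:**
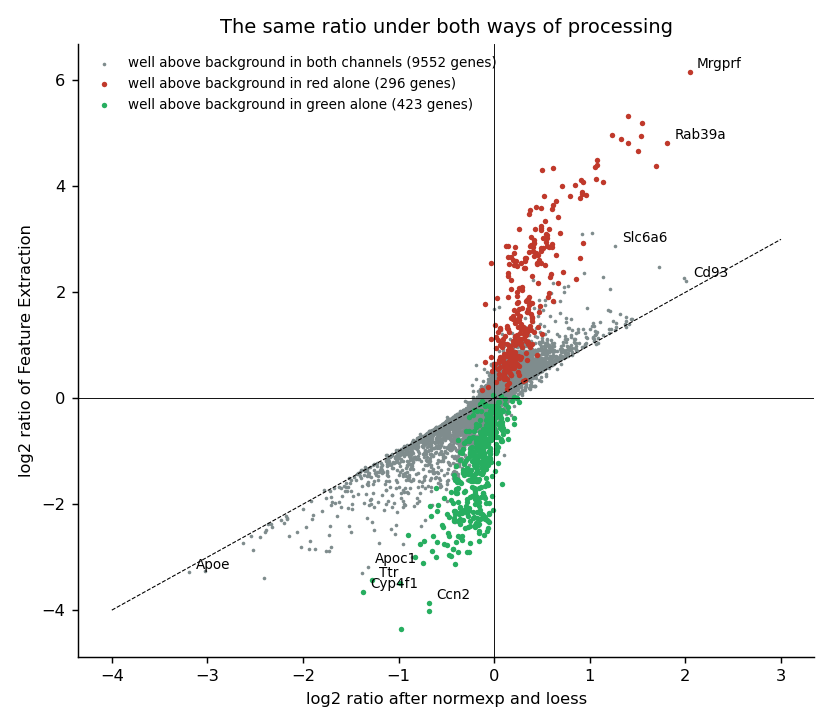
Log2 ratio from the Feature Extraction software (vertical axis) against the log2 ratio after normexp and loess (horizontal axis) for genes well above background in both channels (grey, 9552), red alone (red, 296) or green alone (green, 423); the dashed line is equality. Bright genes such as Apoe and Cd93 lie near the line. Genes measured in 1 channel with a large bound, such as Mrgprf, lie far from it, while others such as Tyrobp (0.053 and -0.29) lie nearer.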

How the data were processed

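RNA was extracted with Trizol, amplified and labelled with Cy3 or Cy5, per the labels' protocols. The deposited scanner file gives red and green spot and background intensity, flags, and a log10 ratio after background subtraction and dye normalisation by Feature Extraction 11.5.1.1 (protocol GE2_1105_Oct12, design 028282, build rn4), per the file headers. The submitters' processing notes name Agilent Feature Extraction 8.5.1.1. The ratio values in the deposited value table, whose scale is linear, were checked against the scanner ratios: within 0.05 (log2), the second column equals the product of both arrays' ratios at 100% of 28395 probes and this array's own ratio at 7.06%. The second over the first column equals this array's ratio at 100% and was used for it. The columns have medians of 0.932 and 0.944.

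Median spot signals were corrected with normexp (offset 50) on the background median and loess within the array in limma 3.58.1 (R 4.3.3). This step was tested on simulated data with changes placed at brighter spots alone, so the test does not cover dim genes. Control spots (1377 of 44254) were left out and had weight 0 in loess, and 576 gene spots marked as outliers were left out. Saturation flagged 0 spots. Repeat spots were averaged into their probe, and a gene's value is the median of its kept probes (19061 kept, 12181 of them named). Probes were named by accession through RefSeq of build GRCr8, which was used for names and promoters only, and no coordinates of the array's build are given. Channels of both arrays were put on 1 scale with Aquantile for the other control channel and for bounds of genes measured in 1 channel. Python 3.11.15, numpy 2.4.6, pandas 2.3.3 and matplotlib 3.10.9 were used for counts and plots.

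Members and gene lists were chosen with earlier results of these data known. Named genes are Bcl2, the BCL-2 family, cell type markers, the 15 highest and 15 lowest genes by the smaller of the loess and Feature Extraction ratios among named genes well above background in both channels with probes of 1 sign, up to 10 genes with the largest bound in each single channel, and in each list its 3 first and up to 8 furthest members. Up to 6 genes whose probes differ were also allowed. Other list members are named for their role and were chosen after their values were seen. With 1 array, precision is limited to technical error, and no p-value was computed. Results for some members of the lists are not reported here.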

Additional observations from a re-analysis of the deposited data

How the results depend on the processing

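The direction of the dyes, the control channel and the processing each moved the counts. Against 57 genes at least 2-fold higher and 205 lower, the Feature Extraction ratio gave 358 and 702, the ratio from the value table gave 307 and 746, a 1.5-fold limit 235 and 680, the turned sign 205 and 57, and the other green channel as control 16 and 4. The other settings, which were an offset of 10, no background correction, median centring, both channels well above background, no filter on dim probes and the brightest probe, kept both counts within 1.5 times. With median centring Aacs, Acsl4, Gal3st1, Hba-a1, Scarb1, Pole2, Orc1 and Psat1 lay under the limit, Orc1 at 0.89 and Psat1 at -0.82. So did Psat1 with the Feature Extraction ratio, at -0.99, and Ldha with the value table, at 0.97. Of the 46 list medians, 33 changed sign with the other control, 4 with the Feature Extraction ratio, 4 with the value table and 1 to 3 with the remaining settings, apart from the turned sign, which changes all. Of the genes named as past the limit above 0, these lay below 0 with the other green channel: Aacs at -0.074, Acat2 at -0.33, Acly at -0.072, Acsl4 at -0.010, Ankrd37 at -0.16, Cyp51 at -0.15, Fdps at -0.26, Hmgcs1 at -0.26, Hsd17b7 at -0.20, Idi1 at -0.21, Insig1 at -0.22, Lss at -0.048 and Msmo1 at -0.15. Likewise lay below 0 Mvd at -0.22, Orc1 at -0.13, Sc5d at -0.0063, Scd at -0.37, Slc35d3 at -0.13, Slc38a2 at -0.057, Stard4 at -0.051, Tfrc at -0.047, Tm7sf2 at -0.15 and Zcchc12 at -0.42. Of those past it below 0, these lay above 0: Abca1 at 0.25, Acss1 at 0.14, Acta2 at 0.13, Aldh1l1 at 0.31, Apoc1 at 0.13, Apoe at 0.34, Atp1b2 at 0.41, Bbc3 at 0.37, Ccng1 at 0.031, Cyba at 0.035, Cyp4f1 at 0.32, Cyp7b1 at 0.081 and Ddit4 at 0.37. Above 0 also lay Derl3 at 0.036, Epha5 at 0.029, Foxj1 at 0.27, Gaa at 0.18, Gstm1 at 0.19, Gstm7 at 0.28, Gstt2 at 0.072, Id4 at 0.030, Ifi27 at 0.035, Lgals3 at 0.054, Map1b at 0.053, Mgmt at 0.063 and Mt1 at 0.19. The same held for Ncam1 at 0.062, Ndrg2 at 0.71, Ppp1r1a at 0.083, Ptprv at 0.0025, S100a1 at 0.038, Scn3b at 0.042, Sod3 at 0.065, Tagln at 0.16, Timp4 at 0.077, Tp53inp1 at 0.40 and Ttyh1 at 0.21. No paired analysis was possible because there is 1 array. No replicate could be left out for the same reason. Dim signals limit ratios of genes near background.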

Other observations

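Some gene groups outside the lists stood out after the values were seen, and the genes in this part were chosen that way, so their values are descriptions. A few genes of calcium-binding S100 proteins, annexins and galectins, picked for their low ratios, were lower in red. S100a6 had 191 in red and 541 in green, a log2 ratio of -1.50, S100a1 was at -1.45 and S100a13 at -1.07. The membrane-binding annexin genes Anxa2 and Anxa5 were at -1.67 and -1.11. The galectin gene Lgals3 had 672 against 2278 at -1.76, and Lgals1 was at -1.40. These genes were near 0 with the other green channel as control, from -0.25 (S100a6) to 0.054 (Lgals3).

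Enzymes of 1 reaction in different compartments lay on opposite sides. Acss1, the mitochondrial acetyl-CoA synthetase gene, had 4401 in red and 11536 in green at -1.39, whereas Acss2, which acts in the cytosol and nucleus, was at 1.99. Tfrc, the transferrin receptor gene that brings iron into cells, was at 1.21, and the ferritin genes Fth1 and Ftl1, whose products store iron, were at -0.35 and -0.60. Cyp7b1, which hydroxylates oxysterols, was at -1.73. Among amino acid carriers, the glutamine transporter gene Slc38a2 was at 1.20, against -1.68 for Slc7a3 and -1.14 for Slc7a11. With the sign turned each of these values changes sign.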
